A study of Mus musculus with 11 samples.

Results

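Neuropeptides, the granins packed with them and a receptor for neuropeptide Y were followed through trigeminal ganglia of mouse embryos with and without Brn3a. The genes were 7 peptide precursors (Sst, Gal, Adcyap1, Npy, Penk, Trh and Tac1), 2 granins (Chga and Chgb) and 1 receptor (Npy1r). All probe sets annotated to these 10 genes were taken, which gave 16 of the 12488 probe sets on the U74Av2 array and 0 of the 12411 on the U74Bv2 array. Every gene had at least 1 probe set, and 5 genes had several, among 8252 genes named on that array by a probe set of their own. The ganglia were dissected at embryonic day 13.5 from wild-type embryos, from heterozygotes and from embryos homozygous for the knockout of Brn3a, a POU-domain factor encoded by Pou4f1, in 2 U74Av2 arrays per genotype. Each array held RNA of about 10 to 12 ganglia pooled by genotype. The sources used here give neither strain, sex nor the design of the knockout allele. P-values of the main fit measure the spread between arrays of a group, which mixes differences between pools with any between arrays labelled 1 and 2.

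Neuropeptides are cut from larger precursor proteins inside dense-core vesicles and released to act on G-protein-coupled receptors. Granins are acidic proteins that help to form those vesicles and are themselves cut into peptides. In sensory ganglia such peptides mark subtypes of neurons and act on pain, blood vessels and inflammation. Brn3a, present in developing sensory neurons, binds DNA through its POU domain and homeodomain, and the study asked which transcripts change in its absence.

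The 100 bases before the annotated transcription start follow for the 4 genes whose signal passed the test between knockout and all other arrays, and for Chgb, whose signal did not. Each is read 5′ to 3′ on the strand of its gene, from RefSeq on build GRCm38.p6, and for Adcyap1, which has 2 listed starts, from the upstream start. Capitals mark the letters of the cAMP response element, TGACGTCA, the site bound by CREB, or of its core, TGACG.
Sst (chr16:23890845-23890944, minus strand): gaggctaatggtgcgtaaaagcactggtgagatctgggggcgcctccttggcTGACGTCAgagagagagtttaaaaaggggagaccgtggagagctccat
Gal (chr19:3414545-3414644, minus strand): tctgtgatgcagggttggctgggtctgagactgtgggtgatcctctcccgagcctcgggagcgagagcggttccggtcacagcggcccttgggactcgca
Adcyap1 (chr17:93198917-93199016, plus strand): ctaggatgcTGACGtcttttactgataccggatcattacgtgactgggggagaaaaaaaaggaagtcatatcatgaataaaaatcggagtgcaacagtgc
Npy1r (chr8:66697322-66697421, plus strand): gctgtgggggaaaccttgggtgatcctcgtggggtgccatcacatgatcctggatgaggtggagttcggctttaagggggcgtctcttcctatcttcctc
Chgb (chr2:132781542-132781641, plus strand): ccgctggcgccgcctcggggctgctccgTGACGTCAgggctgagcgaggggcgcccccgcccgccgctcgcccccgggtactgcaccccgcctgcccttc

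Over the 250 bases before each start, searched on both strands, TGACGTCA stood in the windows of Sst and Chgb, and in 1.55% of 32851 windows of the whole table. Its last base lay 41 bases before the start of Sst and 65 before that of Chgb. The core TGACG, which the longer element contains on both strands, stood in windows of 6 of the listed genes (Sst, Adcyap1, Trh, Tac1, Chga and Chgb) and in 17.8% of all windows. A core of the kind bound by POU factors, ATNNNTAAT, stood in windows of Adcyap1 and Tac1 and in 8.82% of all. These matches describe letters in the windows only. Penk was not in the promoter table.

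Signals are the deposited MAS5 intensities, compared as log2(signal + 50.0) by limma fitted to all 7453 probe sets that passed a filter on dim signals. Calls required a p under 0.05 after Benjamini-Hochberg adjustment over all of them. Of the 16 probe sets 12 passed the filter. Sst passed it through its knockout arrays, since its signals elsewhere lay under the filter's 124. Tac1 did too, since its mean log2 value over the other arrays, 7.18, lay under the filter's 7.45. Against wild-type, 1 member probe set was called higher and 1 lower, where 0.107% of all tested probe sets were called higher, 0.148% lower and 0.255% in either direction. Against heterozygotes 2 were called, where the background was 0.188%. Against wild-type and heterozygote arrays together 1 was called higher and 3 lower, where the background was 0.295% higher, 0.577% lower and 0.872% in all. Signals of 5 of the 12 did not overlap between knockout and all other arrays, a lack of overlap seen in 16.2% of all tested probe sets. The median difference of the 12 was -0.042 in that comparison, and 0.021 over all tested probe sets. The comparisons share the knockout arrays.

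Somatostatin (Sst), a peptide that inhibits release of hormones and transmitters, was gained in knockout ganglia. Wild-type arrays read 55.7 and 63.4 and heterozygotes 69.3 and 85.0, while knockouts read 1662 and 1842.5. Both knockout arrays stood far above all others. Within an array the wild-type and heterozygote signals exceeded 26.5% to 33.0% of probe sets, and the knockout signals 91.1% and 92.3%. Sst was 16.4-fold higher in knockout than in wild-type (log2 difference 4.04 ± 0.24 SE, limma adjusted p = 0.00246). It was 14.2-fold higher than in heterozygotes (3.83 ± 0.24, limma adjusted p = 0.00299). The arrays carry a number, 1 or 2, in the labels, and within number 1 and number 2 the rise over wild-type was 4.02 and 4.06. By unadjusted p Sst ranked as number 1 of all tested probe sets against wild-type, a set it entered through its knockout arrays, so the rank is not further support. Without the filter on dim signals the limma adjusted p was 0.0109 against wild-type and 0.0157 against heterozygotes. In these bulk pools more cells of a type and more RNA per cell cannot be told apart.

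The size of the Sst rise depends on how the dim wild-type signal is handled. With a pseudocount of 10.0 it was 25.3-fold against wild-type and 20.3-fold against heterozygotes. Without knockout array 1 the calls were lost, with limma adjusted p = 0.0610 against wild-type and 0.0662 against heterozygotes, at differences of 4.11 and 3.90.

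Galanin (Gal), a peptide of injured and developing sensory neurons, was lost to about the same extent against either genotype. Its brighter probe set gave 4088 and 3816 in wild-type, 3753 and 4093 in heterozygotes, and 938 and 952 in knockouts. The 4 other arrays lay close together and both knockout arrays well below them. Gal was 4.02-fold lower than in wild-type (log2 difference -2.01 ± 0.19 SE, limma adjusted p = 0.0125). From heterozygotes it differed by -1.996 ± 0.19, or 3.99-fold (limma adjusted p = 0.0188). Within the array numbers the difference from wild-type was -2.07 and -1.95. The transcript was not at the bottom of the range, since the knockout signals still exceeded 83.1% and 83.2% of probe sets.

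The Gal calls against a single genotype rested on every array compared. Against wild-type the limma adjusted p rose to 0.164 and 0.129 when knockout array 1 or 2 was left out, and to 0.115 and 0.103 when wild-type array 1 or 2 was. Against heterozygotes it was 0.193, 0.162, 0.149 and 0.225 without knockout arrays 1 and 2 and heterozygote arrays 1 and 2. The differences stayed between -2.06 and -1.93, and calls over all tested probe sets fell as well in these fits. Against all other arrays Gal kept its call with each array left out (limma adjusted p 0.00356 to 0.0157).

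Adcyap1 encodes PACAP, a peptide that raises cAMP and supports neuronal survival. Its signal was 880 and 1261 in wild-type, 697 and 1318 in heterozygotes, and 174.5 and 225.5 in knockouts. The number 2 array was the higher in every genotype, and both knockout arrays stood below all others. The difference was -2.15 ± 0.34 SE from wild-type (4.44-fold) and -2.02 ± 0.34 from heterozygotes (4.06-fold). In a fit without a block for array number neither passed on its own, at limma adjusted p = 0.111 and 0.124, while against all 4 other arrays Adcyap1 fell by 2.09 ± 0.27 on the log2 scale (limma adjusted p = 0.0150). Within the array numbers the difference from all other arrays was -1.89 and -2.28. Without knockout array 1 or 2 that call was lost (limma adjusted p = 0.144 and 0.0631, at -1.94 and -2.23).

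Npy1r, the Y1 receptor through which neuropeptide Y inhibits neurons, gave the lowest knockout signals of the called members on its responding probe set. That probe set read 474 and 489 in wild-type, 242 and 635 in heterozygotes, and 59.2 and 15.3 in knockouts. The heterozygotes spanned a wide range, yet the lower of them stayed above both knockout arrays. Npy1r fell by 2.53 ± 0.36 against all other arrays (5.77-fold, limma adjusted p = 0.0219). The differences from wild-type (-2.65 ± 0.45) and heterozygotes (-2.40 ± 0.45) did not pass on their own in the fit without such a block (limma adjusted p = 0.134 and 0.150).

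The knockout signals of Npy1r exceeded 26.6% and 8.9% of probe sets on their arrays, so the fold depends on the pseudocount and became 10.6 with 10.0 added. The difference from all other arrays was -1.84 within number 1 and -3.22 within number 2. Leaving out a single array ended the call for 5 of the 6 arrays. The limma adjusted p was then 0.0783 and 0.146 without knockout arrays 1 and 2, 0.0742 and 0.0636 without wild-type arrays 1 and 2, and 0.0579 without heterozygote array 2, at differences between -2.90 and -2.16.

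**Figure D1:**
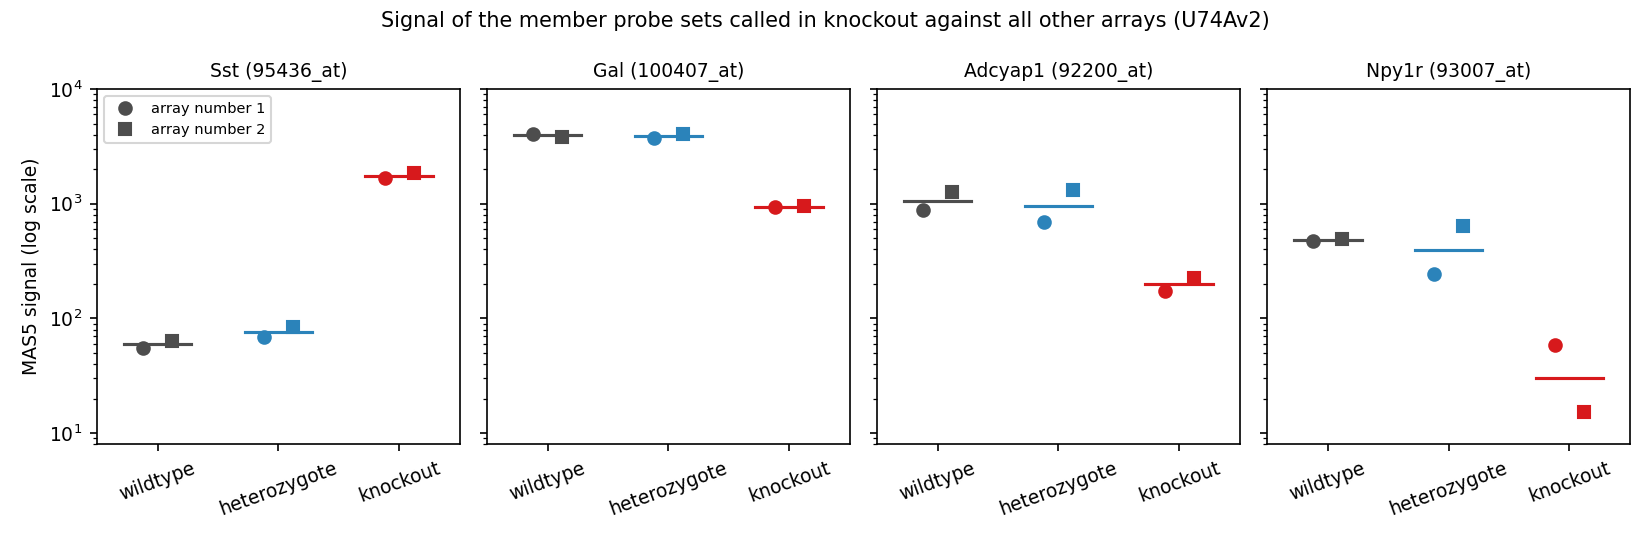
MAS5 signal on a log scale (vertical axis) in each U74Av2 array of the 3 genotypes (horizontal axis) for Sst, Gal, Adcyap1 and the responding Npy1r probe set. Points are arrays, circles for number 1 and squares for number 2, and bars are geometric means of 2 arrays; the knockout arrays of Sst lie at 1662 and 1842.5 above all others, and those of the other 3 genes lie below all others.

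Neuropeptide Y itself (Npy), the ligand of the Y1 receptor, did not pass in any comparison. Its signal was 819 and 260 in wild-type, 412 and 285 in heterozygotes, and 606 and 329 in knockouts. Number 1 arrays read higher than number 2 arrays in all 3 genotypes, by up to 3.15-fold in wild-type, and the genotypes overlapped. The difference between knockout and wild-type was -0.06, with a 95% interval of -1.26 to 1.15, so a change of either direction within those bounds was not excluded. That fit has no block for array number, and within number 1 and number 2 the difference was -0.41 and 0.29. So the responding Npy1r probe set passed and Npy did not, and the difference between them was not tested. In the fit without a block, that Npy1r probe set passed only against all other arrays. A further Npy1r probe set, not past the filter, differed from wild-type by 0.09.

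Tac1, the precursor of substance P, had its highest signals in knockout without passing. It read 94.8 and 152 in wild-type, 37.7 and 124 in heterozygotes, and 160 and 286 in knockouts. Both knockout arrays lay above the others, by a small margin for number 1. The probe set passed the filter through its knockout arrays, so the intervals that follow are not independent support for a rise. The difference was 0.64 from wild-type (95% interval -0.39 to 1.66), 1.11 from heterozygotes (0.08 to 2.13) and 0.87 from all other arrays (0.02 to 1.73), with limma adjusted p = 1.00, 0.909 and 0.607.

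Penk, the precursor of the enkephalins, and Trh, that of thyrotropin-releasing hormone, were not called in any comparison. The brightest Penk probe set, of a family type that can match related transcripts, lay between 718 and 923 in all 6 arrays. Its knockout minus wild-type difference was 0.19 with an interval of -0.29 to 0.67. Trh read 425 and 357 in wild-type, 696 and 342.5 in heterozygotes, and 350 and 328 in knockouts. Heterozygote array 1 stood above the rest, and the difference between knockout and wild-type was -0.18 (-0.95 to 0.60).

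The granins, which travel with the peptides in dense-core vesicles, were not called either. For Chga the brighter probe set read 853 and 751.5 in wild-type, 951 and 813 in heterozygotes, and 975 and 706 in knockouts. The knockout arrays were the highest and the lowest of the 6. Its difference from wild-type was 0.05, with an interval of -0.52 to 0.62. Chgb, measured by a family-type probe set, read 601 and 562 in wild-type, 657 and 682 in heterozygotes, and 600 and 656 in knockouts, a difference from wild-type of 0.10 (-0.38 to 0.58). Changes of the size seen for Sst, Gal or Npy1r lay outside these intervals.

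**Figure D2:**
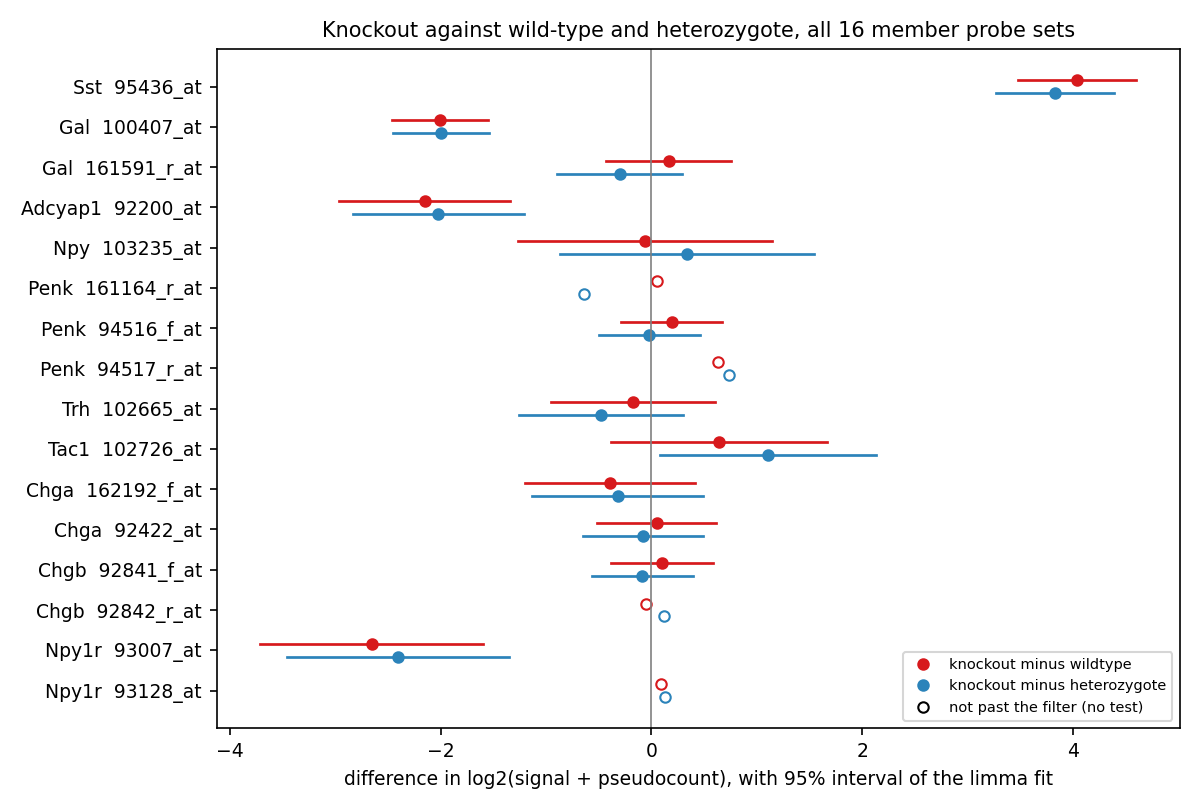
Difference in log2(signal + pseudocount) between knockout and wild-type (red) and knockout and heterozygote (blue) for the 16 probe sets (rows), with 95% intervals of the limma fit; open points did not pass the filter and were not tested. Sst lies at 4.04 and 3.83, 1 probe set each of Gal, Adcyap1 and Npy1r lies between -2.65 and -1.996, and the remaining tested intervals include 0 except that of Tac1 against heterozygotes. Sst and Tac1 passed the filter through their knockout arrays.

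Probe sets of the same gene disagreed for Gal and Npy1r. A further Gal probe set, of relaxed design, read 218 and 207 in wild-type, 349.5 and 278 in heterozygotes, and 275 and 215 in knockouts. Its knockout minus wild-type difference was 0.16, with an interval of -0.43 to 0.75, which leaves out the -2.01 of the brighter probe set. A further Npy1r probe set read 114 and 102 in wild-type, 141 and 74.1 in heterozygotes, and 142 and 97.3 in knockouts. It did not pass the filter, and its difference of 0.09 was not tested. For each pair the gap between probe sets in log2 terms was compared between the 2 knockout arrays and the 4 others. The gap changed by -1.93 for Gal and -2.64 for Npy1r. A two-sided exact permutation test gave p = 0.133 for each, the smallest p this design allows, and 0.267 after adjustment over the 6 pairs. Which transcripts the further probe sets match was not tested.

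The gap changed less in the remaining pairs. The 2 further Penk probe sets, both of relaxed design, did not pass the filter. The first read 95.6 and 60.1 in wild-type, 63.1 and 72.0 in heterozygotes, and 99.3 and 208 in knockouts, with differences from wild-type of 0.04 within number 1 and 1.23 within number 2. The second read 48.1 and 32.1 in the heterozygotes and between 5.3 and 8.0 in the 4 other arrays, signals that exceeded at most 23.6% of probe sets. A further Chga probe set, of family type, read 310 and 416.5 in wild-type, 324.5 and 356 in heterozygotes, and 177 and 380 in knockouts. Only knockout array 1 stood apart in it, and the difference from wild-type was -0.39 (-1.20 to 0.42). A further Chgb probe set, of relaxed design, stayed between 8.0 and 35.9 and did not pass the filter. Over the 4 pairs of Penk, Chga and Chgb the gap changed by between -0.60 and 0.38 (exact permutation p 0.133 to 1.00, adjusted 0.267 to 1.00).

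**Figure D3:**
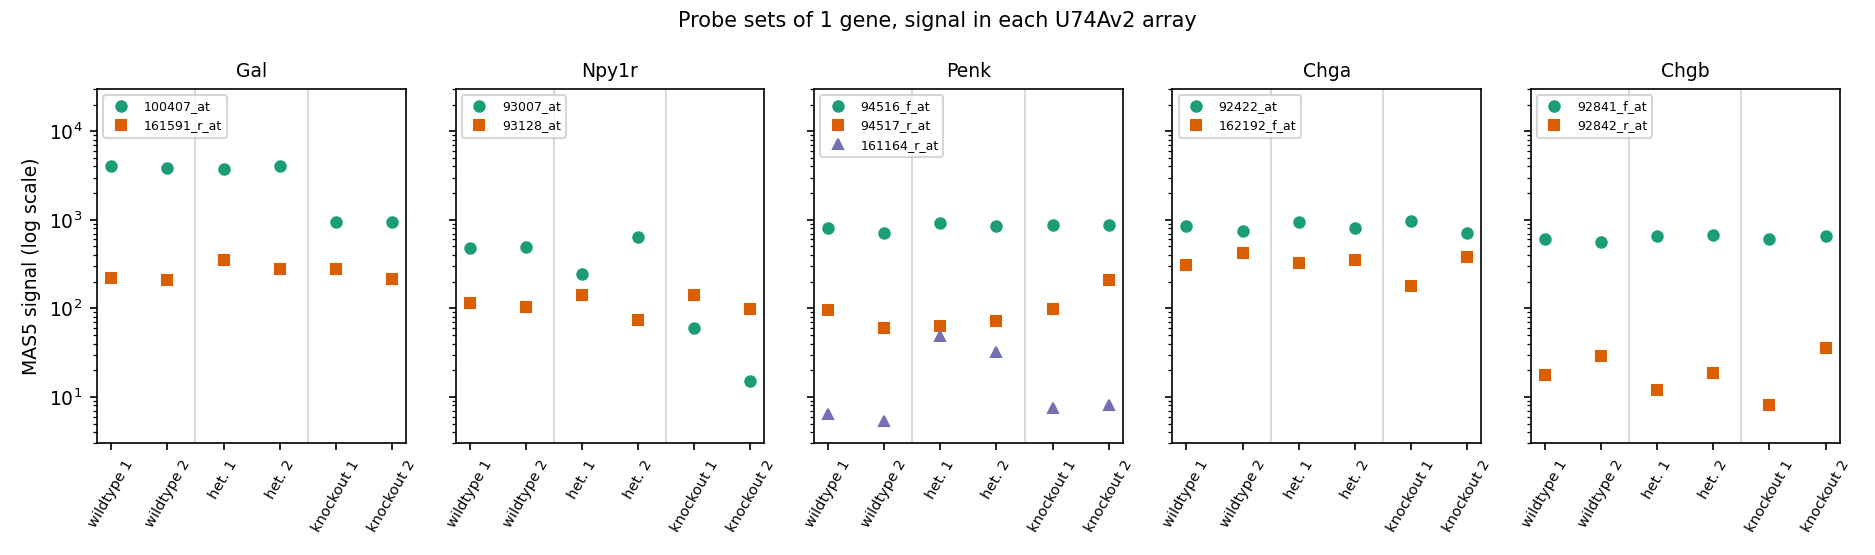
MAS5 signal on a log scale (vertical axis) in each of the 6 U74Av2 arrays (horizontal axis) for the 5 genes with several probe sets, with 1 symbol per probe set and its identifier in the legend. The brighter Gal and Npy1r probe sets drop in both knockout arrays while the further ones stay between 207 and 349.5 for Gal and between 74.1 and 142 for Npy1r.

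Heterozygotes were not called different from wild-type for any of these genes, nor for any of the 7453 tested probe sets (0%), with 52 at an unadjusted p under 0.05 in limma. Heterozygote minus wild-type was 0.21 for Sst (95% interval -0.34 to 0.77), -0.01 for the brighter Gal probe set (-0.47 to 0.44), -0.13 for Adcyap1 (-0.94 to 0.68) and -0.25 for the responding Npy1r probe set (-1.31 to 0.81). A loss of Gal as large as that in the knockout lay outside its interval. For Adcyap1 and Npy1r the intervals also left out the full knockout difference from wild-type, but still allowed a partial fall.

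Other genes of peptide signalling were counted from lists. Over all tested U74Av2 probe sets 0.255% were called against wild-type and 0.872% against all other arrays. Of 30 other neuropeptide genes with a U74Av2 probe set 13 had a tested one. Of these 0 were called against wild-type and 1 rose against all other arrays, with list medians of 0.28 and 0.20. That gene was Nppb, the precursor of B-type natriuretic peptide, a transmitter of itch neurons in the adult. It read 163 and 153.5 in wild-type, 186 and 171 in heterozygotes, and 377 and 515 in knockouts. All 4 other arrays lay below the knockouts, and the rise was 1.17 ± 0.20 SE (limma adjusted p = 0.0430, and 0.226 against wild-type alone).

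Among peptide receptors 44 had a U74Av2 probe set, 17 were tested and 0 were called in either comparison, with medians of 0.15 against wild-type and 0.08 against all other arrays. Below an unadjusted p of 0.01 against wild-type stood Sstr2, a receptor for somatostatin, and Cckar, a receptor for cholecystokinin. Sstr2 read 235 and 208 in wild-type, 390 and 346 in heterozygotes, and 468.5 and 480 in knockouts. The genotypes did not overlap and the heterozygotes lay between the others, with knockout 0.95 ± 0.22 above wild-type (limma adjusted p = 0.311). Over all tested probe sets 28.5% did not overlap between knockout and wild-type, 27.8% between knockout and heterozygote and 18.7% between heterozygote and wild-type. A graded change was not tested. The Sstr2 probe set is of a group type that shares probes with another. Cckar differed by 0.90 ± 0.26 (limma adjusted p = 0.597).

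On U74Bv2, with 2 knockout, 2 heterozygote and 1 wild-type array, 6 receptor genes were tested and 0 called, where 1.40% of tested probe sets were called against wild-type and 2.93% against all other arrays. The receptor for PACAP, Adcyap1r1, read 479 in wild-type, 298.5 and 353 in heterozygotes, and 207 and 76.9 in knockouts. Both knockout arrays were the lowest, and the difference from all other arrays was -1.22 ± 0.33 (limma adjusted p = 0.108). The difference from the lone wild-type array was -1.55 ± 0.43 (limma adjusted p = 0.189).

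A further list held granins outside the members, enzymes that cut and finish peptides, and proteins of vesicles and their release. It showed no called gene among 20 tested on U74Av2 in either comparison, with medians of 0.05 and -0.01. At an unadjusted p under 0.01 only Ica1, a protein of secretory vesicles, was found, against all other arrays. It read 585 and 467 in wild-type, 479 and 501 in heterozygotes, and 152 and 315.5 in knockouts (-1.03 ± 0.25, limma adjusted p = 0.189). On U74Bv2 0 of 6 tested genes of this list were called. The medians over all tested probe sets on U74Av2 were 0.016 against wild-type and 0.021 against all other arrays.

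Genes whose signal over the 6 arrays ran closest to that of each called member were found by the root mean square difference of log2 values centred on each probe set's own mean, among 6725 tested probe sets with 1 symbol. For Sst these were the transcription factors Gata3 (0.21) and Tfap2b (0.38), the calcium-binding protein Calb2 (0.58) and the vesicle GTPase Rab3b (0.63). For Gal they were the transcription factor Runx1 (0.061), the potassium channel Kcna1 (0.11), the Ras regulator Rasa4 (0.12) and the homeobox factor Hmx1 (0.15). Runx1 read 742 and 720 in wild-type, 721 and 740 in heterozygotes, and 126 and 149 in knockouts. For Adcyap1 the nearest were Bnc1 (0.17), Pla2g7 (0.20), Kcna1 (0.20) and Hmx1 (0.21). For Npy1r they were the actin-binding protein Avil (0.32), Hmx1 (0.35), Rasa4 (0.40) and Kcna1 (0.40), at larger distances. These are descriptions over 6 arrays of 3 genotypes, in which any gene with a like rise or fall lies near. Like Sst, the genes Gata3, Tfap2b and Rab3b passed the filter through their knockout arrays, since their signals elsewhere lay under its 124. Their nearness to Sst is therefore not further support.

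**Figure D4:**
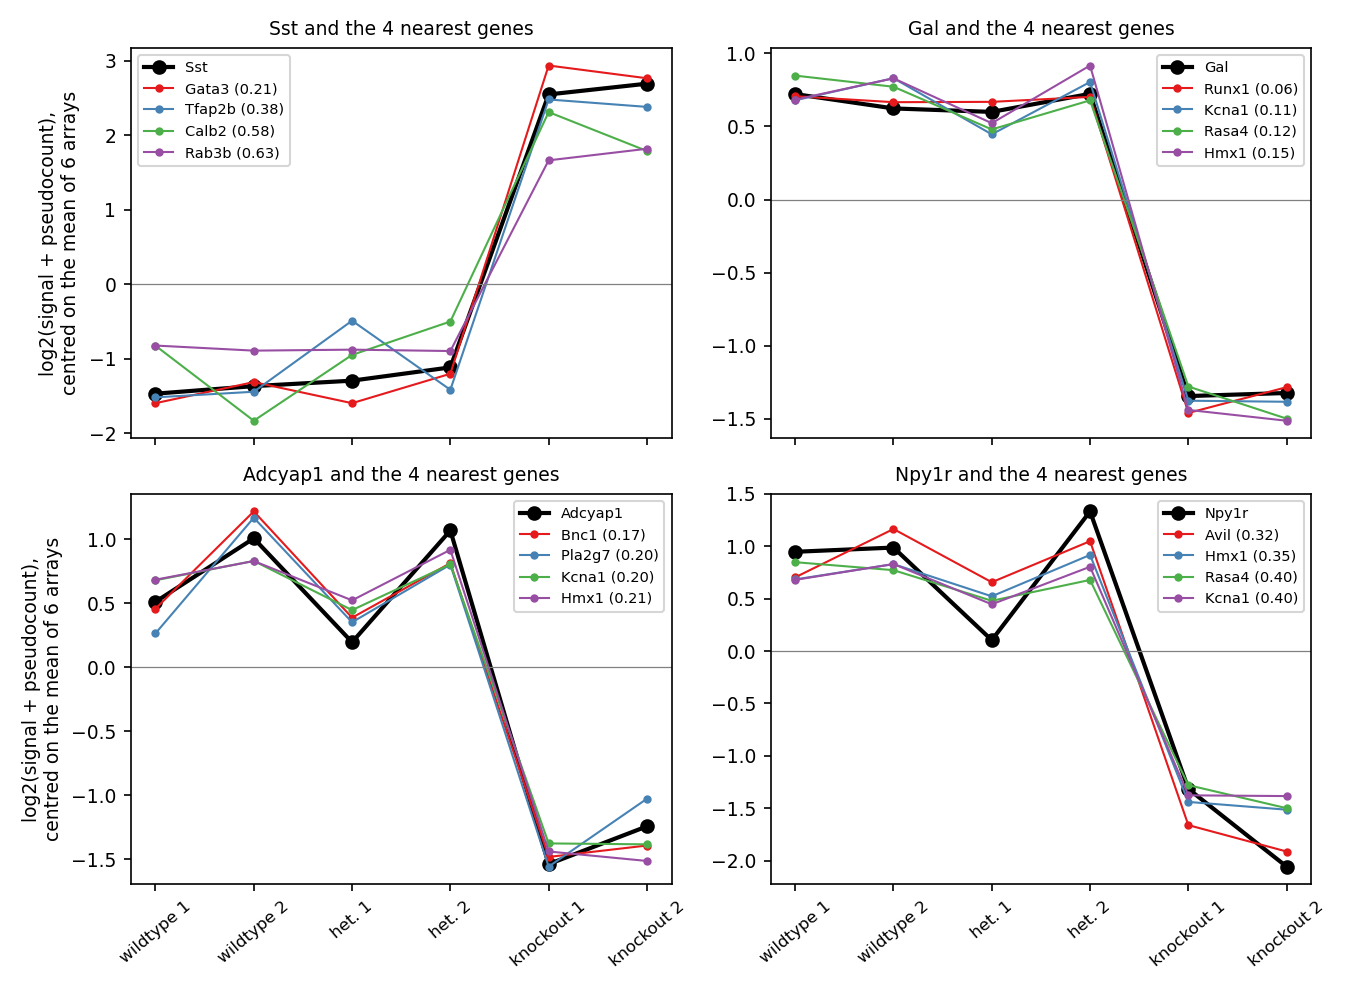
Log2(signal + pseudocount) centred on the mean of 6 arrays (vertical axis) in each U74Av2 array (horizontal axis) for the 4 called members (black) and the 4 nearest genes of each, with the root mean square distance in the legend; lines only join the points of a gene. Sst and its neighbours are high in the 2 knockout arrays, and Gal, Adcyap1, Npy1r and theirs are low in them.

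The samples were checked against markers and controls. Pou4f1 was measured on U74Bv2 alone, at 3313 in wild-type, 2196 and 3570 in heterozygotes, and 550 and 904 in knockouts, so it does not check the U74Av2 labels. Control probe sets for 18S ribosomal RNA read 5173 to 12803 in number 1 arrays and 511 to 974 in number 2 arrays, highest in knockout within each number, and their part in these results was not tested. Of 17 tested sensory neuron markers 0 were called higher and 3 lower against all other arrays (Avil, Runx1 and Sncg). Over all tested U74Av2 probe sets 0.295% were called higher and 0.577% lower. The summed signal of the list was 87702 to 88346 in wild-type, 94758 to 115343 in heterozygotes and 79700 to 87605 in knockouts. The median difference of the 17 genes was -0.55 in that comparison. A further Sncg probe set, of family type, differed by -0.75 without a call. Bright probe sets without a call, such as those of Tubb3, Stmn2 and Uchl1, make up much of the sum. Prph (-1.15), Scn9a (-1.12), Nefh (-0.87) and Scn10a (-0.82) differed downwards without a call, and Isl1 by -0.21. On U74Bv2, Pou4f1, which is the targeted gene, Runx1 and Scn9a were called lower among 9 tested genes of the list. There 2.93% of all tested probe sets were called against all other arrays. An Ntrk2 probe set differed by 0.72 upwards and Runx3 by 0.24, both without a call. A further Ntrk2 probe set differed by -0.28, and the median of the list was -0.29.

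Sst, Npy, Gal and the granins are also known from autonomic neurons and chromaffin cells. Of 6 tested markers of those cells 0 were called higher against all other arrays, where the background was 0.295% higher and 0.577% lower. Th, the first enzyme of catecholamine synthesis, was called lower (-1.20 ± 0.17 SE, limma adjusted p = 0.0219). It read 3078 and 3375 in wild-type, 3304 and 4126 in heterozygotes, and 1391 and 1563 in knockouts. The summed signal of this list was 4959 to 5268 in wild-type, 5781 to 5938 in heterozygotes and 3203 to 4013 in knockouts, and no marker was listed at 0. Th makes up most of that sum, while the median difference of the 6 genes was 0.18. Schwann and satellite glia markers, with 0 of 8 called, summed to 17059 to 18436, 19154 to 20705 and 21395 to 24373 in the same order. The summed list of 3 central nervous system markers was 653 to 809, 627 to 868 and 215 to 459, with Meis2 called lower (-1.75 ± 0.22, limma adjusted p = 0.0122) and carrying most of the fall in the sum. The median difference of that list was -0.30, and its 1 tested gene on U74Bv2 differed by 0.68 upwards without a call. No connective tissue, endothelial, blood, macrophage, muscle or cartilage marker was called. Only 0.872% of all tested U74Av2 probe sets were called against all other arrays, so an absence of calls in lists this small says little. The part of other cells in the peptide results was not tested.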

How the data were processed

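The authors deposited 1 MAS5 signal per probe set and array, an intensity on a linear scale, per the submitters' processing notes. The sources used here give neither its version nor its scaling target. On every array the 2% trimmed mean was close to one value, 500 for U74Av2 and 498 for U74Bv2, so nothing was rescaled. Detection calls were not used here. Precision is limited by the number of arrays.

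Probe sets were named from GEO's platform annotation, and promoter windows from RefSeq (GRCm38.p6). In R 4.3.3 with limma 3.58.1, log2(signal + 0.1 of the trimmed mean) of all arrays of a type was fitted with genotype as factor and eBayes with an intensity trend, after leaving out control probe sets and those at or below the 40th percentile of mean log2 value. A further fit set knockout against all other arrays. The fit was tested on simulated data. Figures used matplotlib 3.10.9 in Python 3.11.15, and permutation tests scipy 1.17.1.

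The members and gene lists were chosen with earlier results of these data known, and some listed genes were familiar from the literature on Brn3a mutants, so nothing here is independent evidence of their direction. Every member probe set is given. From the other lists called probe sets up to 6 are named, and otherwise the 3 of largest difference among those below an unadjusted p of 0.01; 4 nearest genes are named per called member. Alternatives were a replicate block, another pseudocount, no filter, no trend, quantile normalization, only the groups compared, and each array left out.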

Additional observations from a re-analysis of the deposited data

How the results depend on the processing

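Every difference of the 4 called probe sets between knockout and the other genotypes kept its sign under all alternatives run. The replicate numbers 1 and 2 are shared between genotypes, with no label that ties them to a litter or day. Deviations of same-numbered U74Av2 arrays correlated at 0.53 to 0.62 between genotypes over 7453 probe sets. With the replicate number as a block, 4 member probe sets were called against wild-type and 4 against heterozygotes, in place of 2 and 2, since Adcyap1 (limma adjusted p = 0.00205 and 0.00296) and Npy1r (0.0318 and 0.0406) then passed; the calls over all probe sets went from 19 to 130, from 14 to 129 and, against all other arrays, from 65 to 266. With each array left out in turn, an array left alone in its genotype being assumed to vary like the others, member calls ranged from 0 to 2 against wild-type, 0 to 2 against heterozygotes and 2 to 4 against all other arrays, and stayed at 0 between heterozygote and wild-type. Calls over all tested probe sets also fell when an array of the groups compared was left out, so lost calls are not particular to the members. Against all other arrays they went from 65 to between 31 and 42 without a wild-type or heterozygote array. Another pseudocount, no filter, no intensity trend and quantile normalization left the 4 member counts as they were, and fitting only the groups compared left the 3 member counts between single genotypes as they were. Over single probe sets and comparisons, 531 alternative values were on the same side of the threshold, 17 lost a call and 4 gained one. The 531 include the values of probe sets that no setting called, so they do not measure how stable the called ones are. Settings in which Tac1 did not pass the filter are not counted. U74Bv2 holds no member probe set, so no alternative gave a member value there. Signals near the bottom of the range (Sst outside knockout, Npy1r in knockout) limit how precisely a fold can be given.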
